A study of Mus musculus with 24 samples.

Results

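Mural cells are the contractile and supporting cells that wrap the endothelial tubes of brain vessels, and 10 of their marker genes are described here across the cerebella of 24 mice. The genes were taken by symbol from a list of known markers and found as Ensembl entries in a count table of 43430 genes, of which 42462 carried a symbol. All 10 were present and all 10 passed the filter on low counts that left 15300 genes for testing. The 4 contractile genes were Acta2, Tagln, Myh11 and Cnn1, and the 6 pericyte genes were Rgs5, Pdgfrb, Notch3, Kcnj8, Abcc9 and Vtn.

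The mice were about 7 weeks old and fell into 4 genotype groups of 6, with 3 males and 3 females in each, 1 library per mouse. The cKO+NDI1 group combined a conditional knockout with NDI1, a yeast NADH dehydrogenase that regenerates NAD+ inside mitochondria without pumping protons. The cKO group carried the conditional knockout alone, the NDI1 control expressed NDI1 without the knockout, and the Cre control served as the control for Cre. The study's title places the knockout in brain mitochondrial complex I and asks what NAD+ regeneration restores. The labels name neither the deleted gene nor the promoter driving Cre, so the cells in which the deletion took place cannot be read from them. In the published model the deleted gene is Ndufs4, an accessory complex I subunit, whose whole-gene level was 67.1 to 133 CPM in cKO and 104 to 164 CPM in Cre control, with overlap between the groups (log2 fold change -0.47 ± 0.16 SE, edgeR adjusted p = 0.0939). Counts from exons outside the deleted part do not check the labels. RNA came from whole cerebellum. For every gene below, a change in the number of mural cells and a change in RNA per cell therefore cannot be told apart.

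Arterioles are wrapped by smooth muscle cells, which hold tension through a contractile apparatus of smooth muscle actin, smooth muscle myosin and actin-binding proteins. Capillaries are covered instead by pericytes, which help keep the blood-brain barrier closed and depend on platelet-derived growth factor released by the endothelium. Contractile genes are switched on in smooth muscle by serum response factor with its partner myocardin, through short AT-rich elements called CArG boxes. Notch signals from the endothelium maintain both cell types.

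The promoters of 3 of the genes are shown. These are the genes that passed the test of cKO against Cre control given below and whose promoter sequence was available. The CArG box was marked because it is the element best known in contractile genes. They are RefSeq sequences of the GRCm38.p6 build, each running from 250 bases before the transcription start to 50 bases after it, written 5′ to 3′ on the strand of the gene. Capitals mark matches to CCNNNNNNGG in which at least 5 of the 6 middle bases are A or T, a form that reads the same on both strands. Acta2 lies on the minus strand at chr19:34255324-34255623, Cnn1 on the plus strand at chr9:22099003-22099302 and Rgs5 on the plus strand at chr1:169655251-169655550.
Acta2: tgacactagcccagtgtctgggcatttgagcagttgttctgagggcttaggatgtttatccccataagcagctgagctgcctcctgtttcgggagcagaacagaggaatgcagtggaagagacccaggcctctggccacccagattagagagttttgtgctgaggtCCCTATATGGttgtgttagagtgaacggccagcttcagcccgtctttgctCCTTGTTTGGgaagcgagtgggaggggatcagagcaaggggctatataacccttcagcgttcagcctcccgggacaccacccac
Cnn1: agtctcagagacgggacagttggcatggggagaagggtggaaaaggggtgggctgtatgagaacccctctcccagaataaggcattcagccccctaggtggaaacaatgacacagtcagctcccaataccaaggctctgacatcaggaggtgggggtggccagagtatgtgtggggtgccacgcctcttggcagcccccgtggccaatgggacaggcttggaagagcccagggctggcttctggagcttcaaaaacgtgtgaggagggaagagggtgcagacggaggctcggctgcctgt
Rgs5: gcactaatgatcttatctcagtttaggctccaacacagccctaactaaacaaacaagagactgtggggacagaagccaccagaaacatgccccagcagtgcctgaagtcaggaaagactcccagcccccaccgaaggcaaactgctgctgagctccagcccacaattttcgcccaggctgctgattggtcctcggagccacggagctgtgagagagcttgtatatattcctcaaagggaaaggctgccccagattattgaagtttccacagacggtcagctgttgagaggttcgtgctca

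The table of promoters held 7 of the 10 genes, and Acta2 alone among them contained such a match in its window. It had 2, at positions -84 to -75 and -34 to -25 counted from the transcription start. Of 32851 promoter windows of the same length, 9.98% held at least 1 match, and 1.63% held one in which all 6 middle bases were A or T. The motif TGGGAA, the core bound by the Notch partner RBP-J, was found on either strand in 4 of the 7 windows (Acta2, Kcnj8, Abcc9 and Vtn), against 25.6% of all windows. A match is a string of letters and was not tested as a binding site.

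Per length of transcript the levels of the genes spanned a wide range. On the scale of CPM (counts scaled to a common library size by TMM) divided by exon length in kilobases, the mean level over the 24 libraries was 54.9 for Vtn, the secreted adhesion protein vitronectin, and 45.9 for Rgs5, a brake on G protein signalling that marks pericytes. It was 13.6 for Tagln and 11.2 for Acta2, then 4.42 for Kcnj8, 4.25 for Pdgfrb and 2.44 for Notch3. Abcc9 stood at 1.29, Myh11 at 1.24 and Cnn1 at 0.509. Rgs5, with 36.0 CPM per kilobase in its lowest library, lay above every library of Tagln, whose highest was 20.8. The other neighbours in this order had ranges over the libraries that overlapped.

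All 4 contractile genes had higher fitted levels in cKO than in Cre control cerebella, and 3 of them rose past the threshold. Acta2 rose 1.80-fold, Cnn1 2.09-fold and Myh11 1.71-fold, while Tagln, with a fold of 1.43, did not pass. Of the 6 pericyte genes, Rgs5 rose by a smaller 1.19-fold and the other 5 did not pass the test. A gene was called at an adjusted p under 0.05 in edgeR's quasi-likelihood test with Benjamini-Hochberg adjustment over all genes tested. By that rule 4 of the 10 genes were called, all higher, against 4.87% of the 15300 genes in either direction, 3.06% being higher and 1.81% lower. The 10 genes were chosen with earlier results of these data known, so this count and those like it below carry no test of the set.

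Acta2, the smooth muscle actin, stood at 26.3 CPM in the lowest cKO library, 31.1 at the median and 34.7 in the highest. In Cre control its lowest, median and highest values were 13.6, 17.1 and 21.7 CPM. The groups did not overlap, with the lowest cKO library above the highest Cre control library. The log2 fold change was 0.84 ± 0.15 (SE; edgeR's quasi-likelihood test, adjusted p = 0.00154; 6 libraries per group).

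Cnn1 encodes calponin, which binds actin and restrains the myosin motor. It was the least abundant of the genes, with 15 to 30 counts per library in cKO and 4 to 17 in Cre control. Its levels were 1.26, 1.63 and 3.32 CPM at the lowest, median and highest cKO library, and 0.239, 0.989 and 1.11 CPM in Cre control. The groups did not overlap, and the low Cre control value came from female F3, whose other 5 group members lay between 0.919 and 1.11 CPM. Cnn1 rose by a log2 of 1.07 ± 0.31 (SE, edgeR adjusted p = 0.0470). Without that Cre control library the log2 fold change was 0.86 and the adjusted p 0.0841. The call was lost in 15 of the 24 fits that each left out 1 library, with adjusted p-values of 0.0406 to 0.144.

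Myh11, the smooth muscle myosin heavy chain, had 7.31, 12.3 and 16.3 CPM at the lowest, median and highest cKO library, against 5.87, 7.00 and 8.25 CPM in Cre control. Of the 6 cKO libraries, 5 lay above all Cre control libraries, and 1 fell within their range. The rise was a log2 of 0.77 ± 0.23 (SE, edgeR adjusted p = 0.0495). This call sat at the threshold and held in 5 of the 24 fits that each left out 1 library, with adjusted p-values of 0.0216 to 0.135.

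Tagln, the actin-bundling protein transgelin, reached 25.0, 29.1 and 32.7 CPM at the lowest, median and highest cKO library, against 11.2, 20.01 and 28.7 CPM in Cre control. All 6 cKO libraries exceeded the Cre control median and 4 exceeded every Cre control library. The log2 fold change of 0.52 ± 0.17 (SE) missed the threshold (edgeR adjusted p = 0.0740). Tagln is also the hardest of the genes to count, since 67.9% of its exon bases (1349 of 1988) overlap genes on the opposite strand, Pcsk7 and Gm48529, and whether counting used the strand is not stated.

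The number of genes whose cKO libraries all lay above all Cre control libraries was 2 of the 10, Acta2 and Cnn1, against 1.61% of all genes tested. None of the 10 showed the opposite order, which 1.07% of all genes did.

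**Figure D1:**
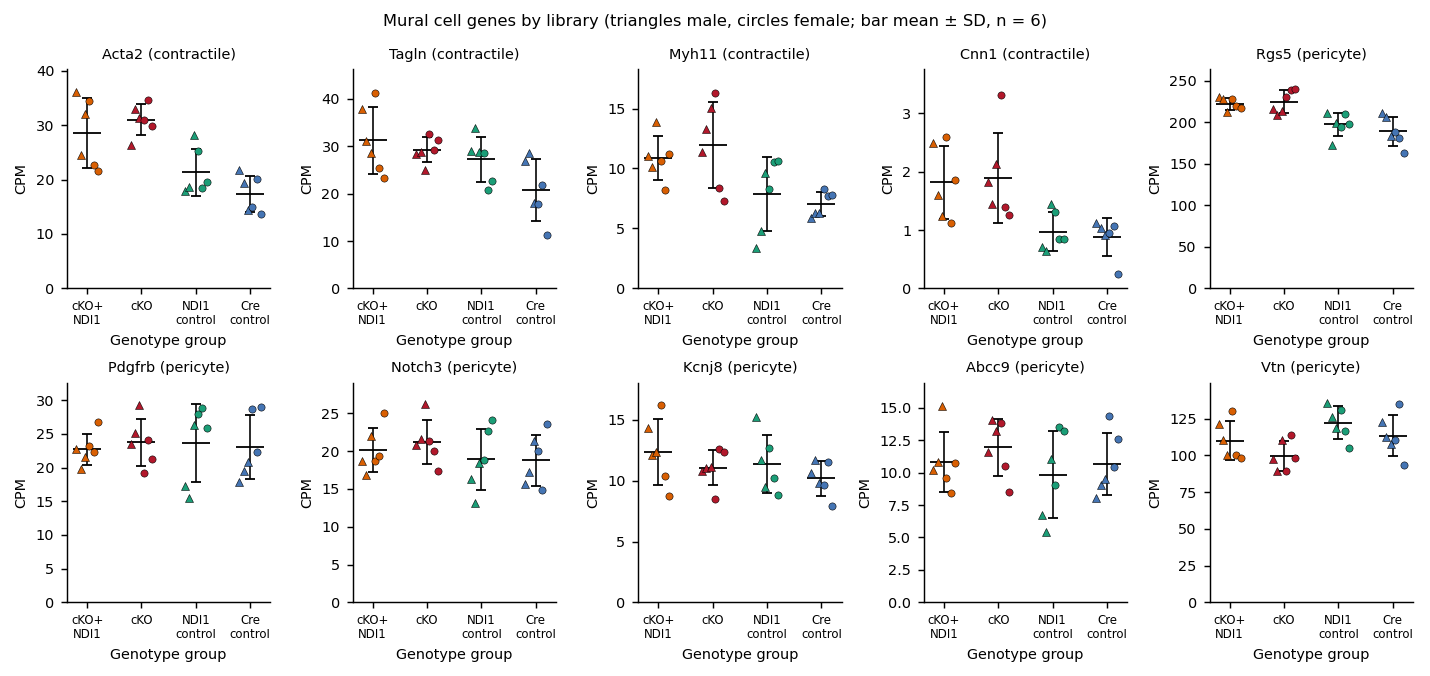
Level of each of the 10 genes (CPM, linear axis from 0) in the 24 libraries by genotype group, with triangles for males, circles for females and black bars for the mean ± SD of 6 libraries. Acta2 and Cnn1 separate cKO from Cre control completely, while the 6 pericyte genes overlap between those groups.

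Rgs5, with 1642 to 4631 counts per library, was measured most precisely. It stood at 209, 224 and 241 CPM at the lowest, median and highest cKO library, against 164, 186 and 212 CPM in Cre control. Of the cKO libraries 5 lay above every Cre control library, with a narrow overlap between the lowest cKO and the highest Cre control library. The log2 fold change was 0.25 ± 0.06 (SE, edgeR adjusted p = 0.0231), and the adjusted p stood between 0.0521 and 0.0580 when Cre control M3, F2 or F3 or cKO F2 was left out.

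The 2 receptors of the pericyte list showed little difference. Pdgfrb, the receptor through which endothelial platelet-derived growth factor recruits pericytes, had 19.1 to 29.3 CPM in cKO and 17.9 to 29.0 CPM in Cre control, with a log2 fold change of 0.07 ± 0.14 (SE, edgeR adjusted p = 0.860; 95% interval -0.20 to 0.34). Notch3, the Notch receptor of mural cells, had 17.4 to 26.2 CPM in cKO and 14.8 to 23.5 CPM in Cre control, with a log2 fold change of 0.18 ± 0.13 (SE, edgeR adjusted p = 0.517; 95% interval -0.08 to 0.45). The groups overlapped for both. The upper ends of both intervals lie below the estimates for Acta2, Cnn1 and Myh11, but the 95% interval of Myh11, 0.33 to 1.21, overlaps both. The difference between contractile and pericyte genes was not tested.

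Kcnj8 and Abcc9 encode the pore and the regulatory subunit of the ATP-sensitive potassium channel of pericytes, and are neighbours on chromosome 6. Kcnj8 had 8.52 to 12.6 CPM in cKO and 7.89 to 11.7 CPM in Cre control, and Abcc9 had 8.49 to 14.04 CPM in cKO and 8.02 to 14.4 CPM in Cre control. Neither separated the groups, and their log2 fold changes of 0.13 ± 0.14 and 0.17 ± 0.20 (SE) did not pass. Although the 2 proteins form 1 channel, their levels moved in opposite directions across libraries with the length measure described further on.

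Vtn was the one gene with a negative estimate. It had 89.4, 97.7 and 114 CPM at the lowest, median and highest cKO library, against 93.1, 111 and 135 CPM in Cre control, and 1 of the 6 cKO libraries lay above the Cre control median. The log2 fold change of -0.18 ± 0.09 (SE) did not pass (edgeR adjusted p = 0.284).

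**Figure D2:**
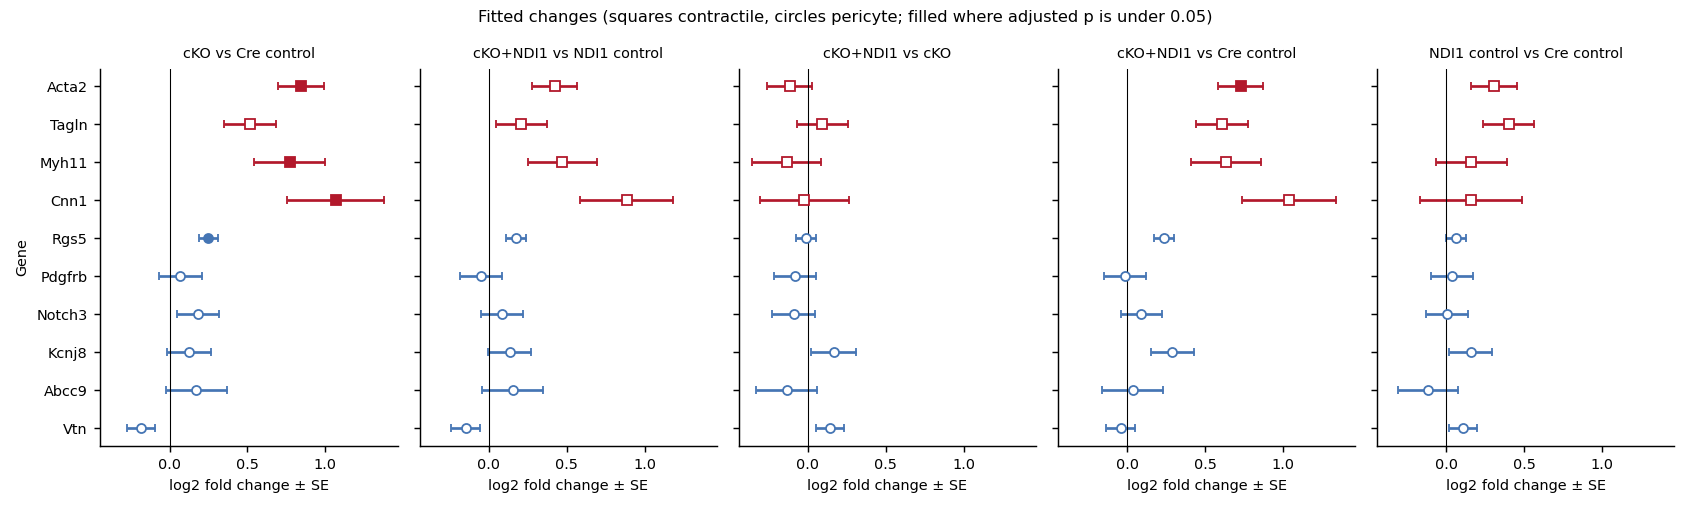
Fitted log2 fold change ± SE of each gene (horizontal axis, shared) in cKO vs Cre control, cKO+NDI1 vs NDI1 control, cKO+NDI1 vs cKO, cKO+NDI1 vs Cre control and NDI1 control vs Cre control, with squares for contractile and circles for pericyte genes and filled symbols at an adjusted p under 0.05. Acta2, Myh11, Cnn1 and Rgs5 are filled in cKO vs Cre control, and Acta2 is filled in cKO+NDI1 vs Cre control.

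To set the contractile against the pericyte genes within each library, the mean log2 CPM of the 6 pericyte genes was subtracted from that of the 4 contractile genes. The difference was -1.50 ± 0.24 in cKO and -2.18 ± 0.34 in Cre control (SD, n = 6 each). The highest Cre control library, at -1.85, lay below the lowest cKO library, at -1.70. The shift of 0.68 came mainly from the contractile side, whose mean was 3.58 in cKO and 2.80 in Cre control, while the pericyte mean was 5.08 in cKO and 4.98 in Cre control. Among the members the median log2 fold change was 0.81 for the contractile and 0.15 for the pericyte genes, beside -0.0074 over all genes tested. These medians and this score carry no test, since the genes were chosen with results of these data known.

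**Figure D3:**
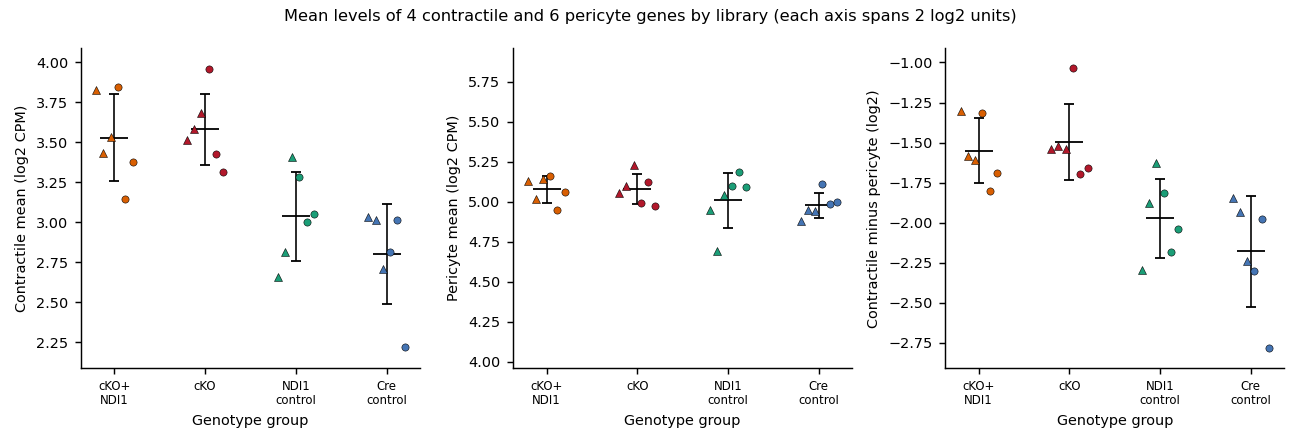
Mean log2 CPM of the contractile genes, of the pericyte genes, and the first minus the second, per library and genotype group (triangles males, circles females, bars mean ± SD of 6). The pericyte means lie close together in all groups, while the contractile means of cKO+NDI1 and cKO lie above most control libraries.

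The comparison of cKO+NDI1 with NDI1 control sets the knockout against its control in animals that all expressed NDI1. None of the 10 genes was called, as was none of the 15300 genes tested (0%; 686 at an unadjusted p under 0.05, 0 by limma-voom and 23 by DESeq2). All 4 contractile estimates were positive, with a median of 0.45, beside 46.9% positive over all genes. Of the 10 genes 4 had an unadjusted p under 0.05.

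Acta2 had 21.6, 28.2 and 36.2 CPM at the lowest, median and highest cKO+NDI1 library, against 17.9, 19.1 and 28.3 CPM in NDI1 control, a log2 fold change of 0.42 ± 0.14 (SE, edgeR adjusted p = 0.801). Every cKO+NDI1 library exceeded the NDI1 control median, although the ranges overlapped. Cnn1 had 1.11, 1.72 and 2.59 CPM in cKO+NDI1 and 0.642, 0.846 and 1.45 CPM in NDI1 control, with a log2 fold change of 0.88 ± 0.30 (SE, edgeR adjusted p = 0.801). Myh11 and Tagln had log2 fold changes of 0.47 ± 0.22 and 0.21 ± 0.16 (SE), also short of the threshold.

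Rgs5 had 213, 223 and 231 CPM at the lowest, median and highest cKO+NDI1 library, against 173, 199 and 211 CPM in NDI1 control. It was the single gene of the 10 whose cKO+NDI1 libraries all lay above all NDI1 control libraries, an order that 0.19% of all genes showed. Its log2 fold change was 0.17 ± 0.06 (SE, edgeR adjusted p = 0.885). The other pericyte genes overlapped between these groups, with log2 fold changes from -0.15 for Vtn to 0.15 for Abcc9.

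Set directly against cKO, the cKO+NDI1 cerebella showed no called difference in any of the 10 genes, against 0.209% of all genes called. None of the 10 had an unadjusted p under 0.05, beside 1309 of the 15300 genes tested. Acta2 differed by a log2 of -0.12 ± 0.14 (SE, 95% interval -0.40 to 0.16), Cnn1 by -0.03 ± 0.29 (-0.58 to 0.53), Myh11 by -0.14 ± 0.22 (-0.57 to 0.30) and Tagln by 0.09 ± 0.16 (-0.23 to 0.41). Rgs5 differed by -0.01 ± 0.06 (-0.14 to 0.11). The interval of Cnn1 was the widest of the 5.

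Against Cre control, 1 of the 10 genes was called in cKO+NDI1, beside 1.25% of all genes, of which 0.843% were higher. That gene was Acta2, which rose by a log2 of 0.73 ± 0.14 (SE, edgeR adjusted p = 0.0181), with 5 of 6 cKO+NDI1 libraries above every Cre control library and an adjusted p of 0.0521 when Cre control M3 was left out. Cnn1 (1.04 ± 0.30, adjusted p = 0.0869), Tagln (0.61 ± 0.16, 0.0656) and Rgs5 (0.24 ± 0.06, 0.0657) were just short of the threshold in edgeR's test. All 6 cKO+NDI1 libraries lay above all Cre control libraries for Rgs5, as did 0.765% of all genes. This comparison shares its Cre control libraries with that of cKO, so the 2 sets of values are not independent.

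In NDI1 control against Cre control none of the 10 was called, beside 0.00654% of all genes. All 4 contractile genes had positive estimates, beside 51.4% of all genes. Of these 4, 2 had an unadjusted p under 0.05, beside 1408 of the 15300 genes tested. Those 2 were Tagln, at 0.40 ± 0.16, and Acta2, at 0.31 ± 0.15 (log2, SE), with edgeR adjusted p-values of 0.465 and 0.536. Whether the knockout effect differed with NDI1 was tested as an interaction, in which no gene of the 10 and no gene of all tested was called (0%; 792 at an unadjusted p under 0.05, 0 by limma-voom and 7 by DESeq2). The 4 contractile interaction estimates were all negative, from -0.42 ± 0.20 for Acta2 to -0.18 ± 0.43 for Cnn1 (log2, SE), each with an edgeR adjusted p of 0.960 or more. Over all genes 48.5% of the interaction estimates were positive. The contractile minus pericyte difference was -1.55 ± 0.20 in cKO+NDI1 and -1.97 ± 0.25 in NDI1 control (SD, n = 6 each), with overlapping libraries.

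Sex made no called difference to any of the 10 genes (males against females over all groups; 0.085% of all genes called). Of the 10, 1 had an unadjusted p under 0.05, beside 2582 of the 15300 genes tested. It was Pdgfrb, with a log2 difference of -0.21 ± 0.10 (SE, edgeR adjusted p = 0.291). The knockout effect, cKO against Cre control, was also compared between the sexes, and no gene of the 10 or of all tested was called (0%; 3147 at an unadjusted p under 0.05, 0 by limma-voom and 9 by DESeq2). Pdgfrb had the smallest p of the 10 in this comparison (edgeR adjusted p = 0.210).

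The estimates by sex are given as values. Pdgfrb stood at 23.5 to 29.3 CPM in cKO males and 17.9 to 20.8 CPM in Cre control males, and at 19.1 to 24.1 CPM in cKO females and 22.3 to 29.0 CPM in Cre control females (3 mice each). Rgs5 averaged 213 CPM in cKO males and 201 CPM in Cre control males, and 237 CPM in cKO females and 178 CPM in Cre control females. Acta2 was higher on average in cKO in both sexes, at 30.2 CPM in cKO males and 18.5 CPM in Cre control males, and at 31.8 CPM in cKO females and 16.2 CPM in Cre control females. The length measure described next had the same pattern over these groups as Pdgfrb, with means of 0.14 in cKO males and -0.10 in Cre control males, and of -0.02 in cKO females and 0.19 in Cre control females. Its part in the sex values was not tested.

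Libraries of this series differed in how strongly long genes were represented. For each library a length index was formed as the mean log2 deviation of long genes (exons over 5770 bases) minus that of short genes (up to 3179 bases); these are the upper and lower of 3 equal sets by length, a deviation being that of a gene from its own mean over libraries. It ran from -0.50 in NDI1 control M2 to 0.43 in Cre control F3. Group means were -0.02 in cKO+NDI1, 0.06 in cKO, -0.08 in NDI1 control and 0.04 in Cre control, and the groups overlapped throughout.

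Across the 24 libraries 7 of the 10 genes followed this index, the longer ones upward and the shorter ones downward. The share of all genes that follow it was not computed. Since the index is formed from long and short genes, this count cannot be read as a trait of mural cell genes. Notch3, with 8089 exon bases, had a Pearson r of 0.886 and a Spearman rho of 0.913 with it, Abcc9 (8373 bases) 0.823 and 0.757, Pdgfrb (5478 bases) 0.773 and 0.716, and Myh11 (7599 bases) 0.615 and 0.528. The short genes ran the other way, with r and rho of -0.733 and -0.737 for Kcnj8, -0.660 and -0.644 for Vtn, and -0.642 and -0.654 for Tagln. Each of these 7 had a permutation p, adjusted over the 10 relations computed, of 0.002 or less for r and 0.0133 or less for rho. With the 2 libraries farthest from the median index left out, the r values were 0.854, 0.786, 0.677, 0.646, -0.750, -0.601 and -0.521 in the order Notch3, Abcc9, Pdgfrb, Myh11, Kcnj8, Vtn and Tagln. Within single genotype groups of 6, r stayed of the same sign for each of the 7, for example 0.840 to 0.967 for Notch3.

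For Acta2, Cnn1 and Rgs5 the relation over the 24 libraries did not pass, with r of -0.160, -0.0435 and -0.168 and rho of -0.180, -0.00696 and -0.205 (adjusted permutation p from 0.503 to 0.841 for r and from 0.421 to 0.976 for rho). Without the 2 farthest libraries their r was -0.119, 0.106 and -0.244. Within single genotype groups r took both signs for each of the 3, from -0.943 (in Cre control) to 0.234 for Acta2. An r over all 24 libraries mixes differences between groups with the relation within them. The part of the index in the calls of cKO against Cre control was therefore not settled by these values. When the index was entered as a covariate, a fit chosen after seeing the data, the estimates in cKO against Cre control were 0.86 ± 0.15 for Acta2, 1.07 ± 0.30 for Cnn1, 0.72 ± 0.15 for Myh11, 0.55 ± 0.11 for Tagln and 0.25 ± 0.05 for Rgs5 (log2, SE). All 5 were called in that fit, with edgeR adjusted p-values of 0.000435, 0.0124, 0.00162, 0.00153 and 0.000769, and Vtn was called lower at -0.17 ± 0.06 (adjusted p = 0.0493). The same fit called 3146 of all genes. The index is itself computed from the tested genes, and what sets it in a library was not tested.

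**Figure D4:**
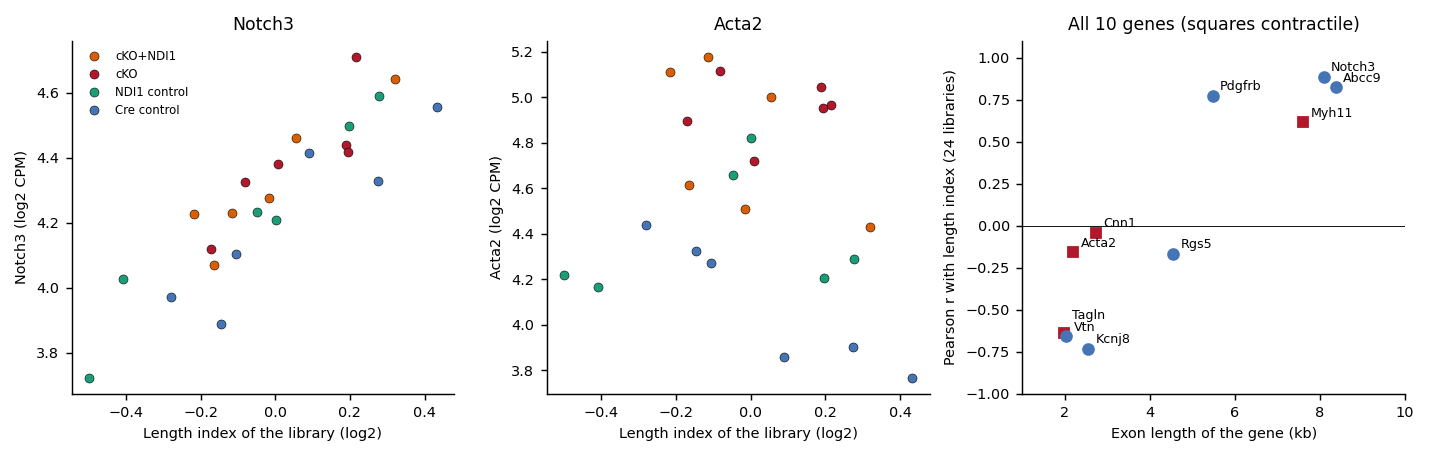
Level of Notch3 and of Acta2 (log2 CPM) against the length index of each of the 24 libraries, coloured by genotype group, and, at right, the Pearson r of each of the 10 genes with the index against its exon length in kilobases. Notch3 climbs with the index in every group, while Acta2 does not and falls with it in Cre control. The 4 longest genes have r of 0.615 to 0.886, while Kcnj8, Vtn and Tagln have r of -0.733 to -0.642.

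A list of other smooth muscle contractile genes and their regulators was followed in cKO against Cre control. Of its 24 tested genes, 20 had positive estimates and 7 rose, with none lower and a median log2 fold change of 0.24. Over all 15300 genes 48.1% had positive estimates and 3.06% were called higher. They included Cavin1, a coat protein of the caveolae that stud smooth muscle and endothelium (0.60 ± 0.10, edgeR adjusted p = 0.00122), Flna, the actin crosslinker filamin A (0.42 ± 0.08, adjusted p = 0.00401), and Filip1l, a filamin-interacting protein (0.77 ± 0.17, adjusted p = 0.00920). Srf, the serum response factor itself, rose by 0.26 ± 0.07 (adjusted p = 0.0319), a call lost in 6 of the 24 fits that each left out 1 library. Of the fixed references in the list, 3 did not pass, with 0.31 ± 0.10 for the myosin light chain Myl9 (adjusted p = 0.0840), 0.12 ± 0.09 for the tropomyosin Tpm2 (0.521) and 0.19 ± 0.13 for the muscle intermediate filament Des (0.483; log2, SE, edgeR). In cKO+NDI1 against Cre control 4 of the 24 were called higher, Myl9 among them, beside 0.843% of all genes. Cavin1 stood at 51.2 to 69.96 CPM in cKO and 31.1 to 42.5 CPM in Cre control, with no overlap. Myocd, which encodes myocardin, and Actg2 had too few counts to be tested, with at most 6 and 11 counts in any library.

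Of 25 other pericyte genes 20 had positive estimates and 3 rose, with none lower and a median of 0.11, beside the same 48.1% positive and 3.06% called higher over all genes. They included Tbx2, a T-box transcription factor (0.96 ± 0.16, adjusted p = 0.00123), and Foxf2, a transcription factor of brain pericytes (0.48 ± 0.12, adjusted p = 0.0173; all log2 ± SE, edgeR). Cspg4 and Anpep, which encode the surface proteins NG2 and CD13 by which pericytes are commonly stained, had log2 fold changes of 0.08 ± 0.16 and -0.09 ± 0.15 (SE) and did not pass.

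Signals that reach mural cells were listed as well, and their counts in cKO against Cre control also stand beside 3.06% of all genes called higher. Among 5 PDGF ligands and receptors 1 rose, Pdgfb, the endothelial ligand of Pdgfrb (0.47 ± 0.11, edgeR adjusted p = 0.0152), while its receptor on mural cells did not. Among 12 Notch ligands, receptors and targets 2 rose, the ligand Jag2 (0.70 ± 0.14, adjusted p = 0.00406) and the target gene Hey1 (0.27 ± 0.07, adjusted p = 0.0191), whose call was lost without Cre control F1. Hey1 was the 1 Notch gene that fell in cKO+NDI1 against cKO (log2 -0.32 ± 0.07 SE, edgeR adjusted p = 0.0455). It stood at 56.6 to 62.2 CPM in cKO+NDI1 and 68.5 to 78.0 CPM in cKO, without overlap.

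Of 13 tested genes of vascular tone 2 rose in cKO against Cre control, again beside 3.06% of all genes, namely Edn1, which encodes the vasoconstrictor endothelin (1.34 ± 0.21, adjusted p = 0.000706), and Nos3, the endothelial nitric oxide synthase (0.48 ± 0.12, adjusted p = 0.0166; edgeR). Of 14 genes of TGF-beta and angiopoietin signalling 3 rose, Tgfb1 (0.63 ± 0.13), its co-receptor Eng (0.51 ± 0.11) and the TGF-beta-responsive Ccn2 (1.04 ± 0.26; log2, SE). Ccn2 stood at 49.4 CPM in cKO F1 and 13.6 to 19.2 CPM in the other 5 cKO libraries, against 6.99 to 14.5 CPM in Cre control. Its log2 fold change was 0.67 without cKO F1, and its call was lost without that library and without Cre control F1 or F3. None of 8 vitronectin receptors and partners and neither of the 2 other ATP-sensitive potassium channel subunits, Kcnj11 and Abcc8, was called. In cKO+NDI1 against NDI1 control no gene of any of these lists was called.

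**Figure D5:**
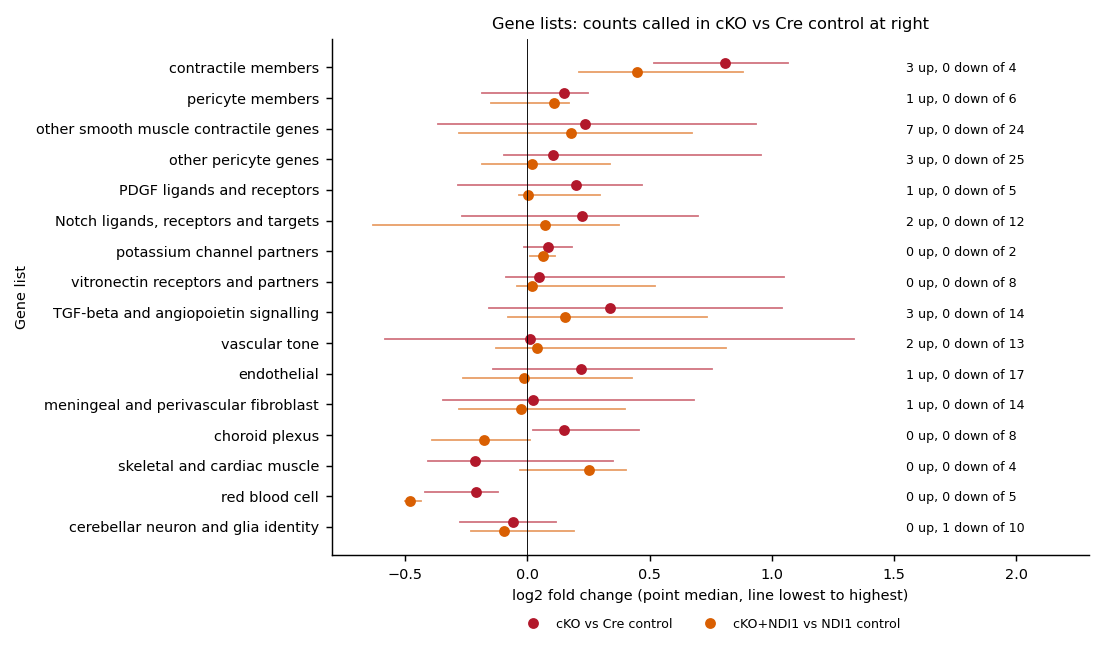
Median (point) and lowest to highest (line) log2 fold change of the genes in each list, in cKO vs Cre control and in cKO+NDI1 vs NDI1 control, with the number called higher and lower in cKO vs Cre control at the right. The contractile members have the highest median, 0.81, and 3 of 4 called.

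Markers of other cells were followed beside these results. The summed level of 17 endothelial markers was 894 to 964 CPM in cKO and 783 to 906 CPM in Cre control. It was 874 to 971 CPM in cKO+NDI1 and 879 to 989 CPM in NDI1 control, so NDI1 control overlapped cKO. Of the 17, 1 rose, beside 3.06% of all genes called higher. It was Pecam1, the endothelial adhesion molecule CD31 (0.76 ± 0.09, edgeR adjusted p = 0.000151). Pecam1 had 41.0 to 54.3 CPM in cKO and 25.5 to 30.7 CPM in Cre control, whereas the tight-junction gene Cldn5 had 47.3 to 97.5 CPM in cKO and 46.6 to 84.4 CPM in Cre control and was not called. The summed fibroblast markers were 469 to 578 CPM in cKO and 494 to 590 CPM in Cre control. Of these 14 genes 1 was called, Mgp, higher (0.68 ± 0.16), beside the same 3.06% of all genes. The part of endothelial or fibroblast RNA in the contractile and Rgs5 values was not tested.

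Markers of skeletal and cardiac muscle, whose actins resemble Acta2, were low. The 8 listed muscle genes summed to 4.20 to 5.76 CPM in cKO and 3.65 to 7.65 CPM in Cre control, and none of the 4 tested was called. Ckm had at most 9 counts and Actc1 at most 1 count in any library. The skeletal actin Acta1 had 1.69 to 2.70 CPM in cKO and 1.83 to 3.64 CPM in Cre control. That lay within the range of Cnn1 in cKO and above it in Cre control. Choroid plexus markers ranged widely within every group, from 1121 to 3732 CPM in cKO and from 1125 to 4214 CPM in Cre control, and red blood cell genes from 206 to 624.98 CPM in cKO and from 333 to 639 CPM in Cre control. No gene of the choroid plexus and red blood cell lists was called. Of 10 identity genes of cerebellar neurons and glia 1 was called, beside 1.81% of all genes called lower. It was Slc1a3, the glutamate transporter of Bergmann glia, which fell by 0.28 ± 0.05 on the log2 scale (SE, edgeR adjusted p = 0.00262) in cKO against Cre control.

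Among the genes whose level over the 24 libraries ran closest to the mean of the contractile genes were Cavin1 (Pearson r = 0.878), Mapkapk2 (0.828), Poldip3 (0.806) and Pecam1 (0.795). Those closest to the mean of the pericyte genes were Mmrn2 (0.835), Pik3ap1 (0.822), Ltbp4 (0.809), Plxnd1 (0.778) and Tgfbr2 (0.768). These correlations are descriptions over libraries that also share their groups, depth and length index, and predicted genes were left out. No gene stood in both lists.

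Library totals were 7584374 to 19785264 counts over the series and lowest on average in cKO, at 11619939, beside 15939006 in Cre control. Mitochondrial transcripts made up 1.48% to 3.35% of counts over the series, with 2.07% to 3.35% in cKO and 1.48% to 2.23% in Cre control. The part of this difference in the values above was not tested. When every library was thinned to the smallest total, 2 of the 10 genes, Acta2 and Rgs5, were still called in cKO against Cre control.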

How the data were processed

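Messenger RNA of whole cerebellum was sequenced from 24 mice. Per the submitters' processing notes, reads were handled with bcl2fastq, Trimmomatic, STAR and HTSeq on the mm10 build (versions not given in the sources used here), and libraries were made with a polyA kit, per the labels' protocols. The deposited values are raw counts per Ensembl gene. The deposited length column was not used, since it exceeds the gene's span for Vtn (4499 bases against 3234). Lengths are unions of GENCODE exons.

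The counts were scaled by TMM and tested with edgeR 4.0.16 (R 4.3.3; filterByExpr by group, group and sex as terms, robust quasi-likelihood fit over all 24 libraries), with Benjamini-Hochberg adjustment over 15300 genes and a threshold of 0.05. Standard errors are the estimate divided by the square root of F, 95% intervals are 1.96 SE on either side, CPM uses TMM library sizes, and log2 CPM a prior count of 2. The test was checked on simulated data. DESeq2 1.42.0 and limma 3.58.1 (voom) were alternatives. Relations with the length index used 100000 permutations, two-sided.

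The groups came from the genotype label. Replicates were separate mice, and none of 60 within-group pairs differed by as little as sampling noise. The 10 genes, the lists and the tests were chosen with earlier results of these data known. Named were all 10 genes, up to 4 called genes per list by smallest p with fixed references, and the 5 genes closest to each mean level; a few genes that meet this rule are not reported here. Library totals of 7584374 to 19785264 limit the precision of Cnn1 most, at 4 to 50 counts per library.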

Additional observations from a re-analysis of the deposited data

Results flagged for a closer look

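In 44 sets of 6 libraries (each of the 10 genes and the contractile minus pericyte difference, in each genotype group), 3 held 1 library far from the other 5 by Dixon's test at the 95% level, which chance gives in about 1 in 20. Abcc9 stood at 15.2 CPM in cKO+NDI1 M3, with 8.45 to 10.9 CPM in the other 5. The contractile minus pericyte difference was -1.04 in cKO F1, with -1.70 to -1.52 in the others, and the difference between cKO and Cre control was 0.56 to 0.75 over the fits without 1 library. Cnn1 was at 0.239 CPM in Cre control F3, with 0.919 to 1.11 CPM in the others. That library also had the lowest Acta2 and Tagln of its group and the highest length index of the series, and the part of the length index in these values was not tested.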

How the results depend on the processing

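In cKO against Cre control, where 4 of the 10 genes were called, 2 were called with limma-voom, 1 without a filter on low counts, 1 with only the compared groups in the fit, 0 in males alone, 2 in females alone and 2 with thinned counts, and 1 to 4 when each library was left out in turn. The count was 1 (Acta2) without Cre control M3, F2 or F3. Acta2 was called in all 24 such fits and in 11 of 12 other settings, males alone being the exception (log2 0.71, adjusted p = 0.113). Rgs5 was called in 20 and 9, Cnn1 in 9 and 6, Myh11 in 5 and 3, and Tagln in 3 and 3. In cKO+NDI1 against Cre control, where 1 was called, 2 were called with library size alone, 4 with DESeq2, 2 with the replicate block, 2 with only the compared groups, 0 in males alone, 0 in females alone and 5 with the length index as a covariate, and 0 to 3 when each library was left out. In the other 6 comparisons none of the 10 was called in any setting run. The causes of these changes were not tested, beyond fewer libraries in the single-sex fits.

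Over all genes, 745 were called in cKO against Cre control and 1159 with DESeq2, 425 without a filter, 263 with only the compared groups, 38 in males alone, 364 in females alone, 494 with thinned counts and 3146 with the length index. In cKO+NDI1 against Cre control 191 were called, 67.5% of them higher, and with library size alone 225, 86.2% higher. It was 491 with DESeq2, 87 without a filter, 14 in males alone, 2 in females alone, 92 with thinned counts and 1548 with the length index, and 26 to 279 when each library was left out.

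Whether the replicate labels (M1 to F3) pair libraries across groups was not settled. Deviations of same-labelled libraries correlated at -0.40 to 0.51 over 36 pairs, with a median of 0.11 and 19 over 0.1. They were not set against pairs with unlike labels. With the replicate block 4 of the 10 genes were called in cKO against Cre control, Tagln in place of Myh11, and 754 of all genes. No called value changed sign under any setting, while 139 of 4138 recomputed values, all uncalled, did. The contractile minus pericyte difference between cKO and Cre control was 0.56 to 0.75 when each library was left out.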
